A study of Mus musculus with 4 samples.

Results

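The 49 genes described here encode the DNA replication machinery of the mouse, and they were chosen by name from the 32285 genes of the deposited matrices. All 49 names were found, and all 49 reached the mean of at least 5 CPM (counts per 1e+06 gene UMIs) that was required for calling a gene measured over all cells. They were followed in LSK cells, the lineage-negative, Sca1+ and c-Kit+ cells that contain blood stem cells and early progenitors, sorted from E17.5 fetal liver. One group of embryos carried the floxed Bclaf1 allele without Cre (Bclaf1f/f, labelled WT) and the other carried Vav-Cre with the same floxed allele (Vav-Cre:Bclaf1f/f, labelled KO). Both groups thus share the floxed allele, and Vav-Cre is known to act across the blood lineage. The presence of Cre and the loss of Bclaf1 cannot be told apart, since no group carries Cre alone. Each genotype was 1 library from 10 pooled embryos, in which gene transcripts and 6 antibody tags, CD150, CD48 and CD201 among them, were counted in the same cells.

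DNA replication begins with licensing. The origin recognition complex (ORC) with Cdc6 and Cdt1 loads the MCM helicase on origins before S phase, and Cdc45 with the GINS complex then turns the helicase on. Polymerases start and extend the new strands behind it, the clamp PCNA holds them on DNA, and RPA covers single strands, while ribonucleotide reductase and thymidylate enzymes supply the building blocks. Many of these genes are known targets of E2F factors, and their transcripts are known to be abundant around S phase. Among LSK cells the CD150+CD48- surface gate is the one known to be richest in stem cells.

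The WT library held 5345 cells with a median of 22734 gene UMIs (unique molecular identifiers, each standing for 1 counted transcript), and the KO library held 2676 cells with a median of 34187.5. Bclaf1 itself was at 218 CPM in WT against 75.8 CPM in KO, a log2 ratio of -1.52. Whether the counted transcript ends lie within the deleted part of Bclaf1 is not given in the sources used here. The libraries shared 5 cell barcodes. Markers of hepatocytes, macrophages and mesenchymal cells had 0 of 8 genes each at or above 5 CPM in both libraries, and endothelial markers had 4 of 8. In droplets with no cell, the summed level of the replication genes was 3570.1 CPM in WT against 3518 CPM in KO, close to that of the cells. With 1 library per genotype there is no replicate check and no test. Intervals below are 95% intervals that cover counting error only. Ratios are KO over WT on a log2 scale unless said otherwise, and a gene is called higher from 25% above WT and lower from 20% below it.

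Over all LSK cells the replication genes stood at nearly the same level in both libraries. Their summed level was 3326 CPM (3317 to 3336) in WT against 3506 CPM (3494 to 3517) in KO, a ratio of 0.08 (0.07 to 0.08). The median ratio of the 49 genes was 0.07, and the median over all 9229 measured genes was 0.07. Of the 49 genes, 40 had a ratio above 0. The median of all measured genes lay above 0 as well, and the share of them above 0 is not given here. Orc5, Dtl and E2f8 were called higher, 3 of 49 genes where 7.47% of all measured genes were called higher. Ung alone was called lower, where 2.57% of all measured genes were. The counts of calls therefore lay near the background of these libraries.

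**Figure D1:**
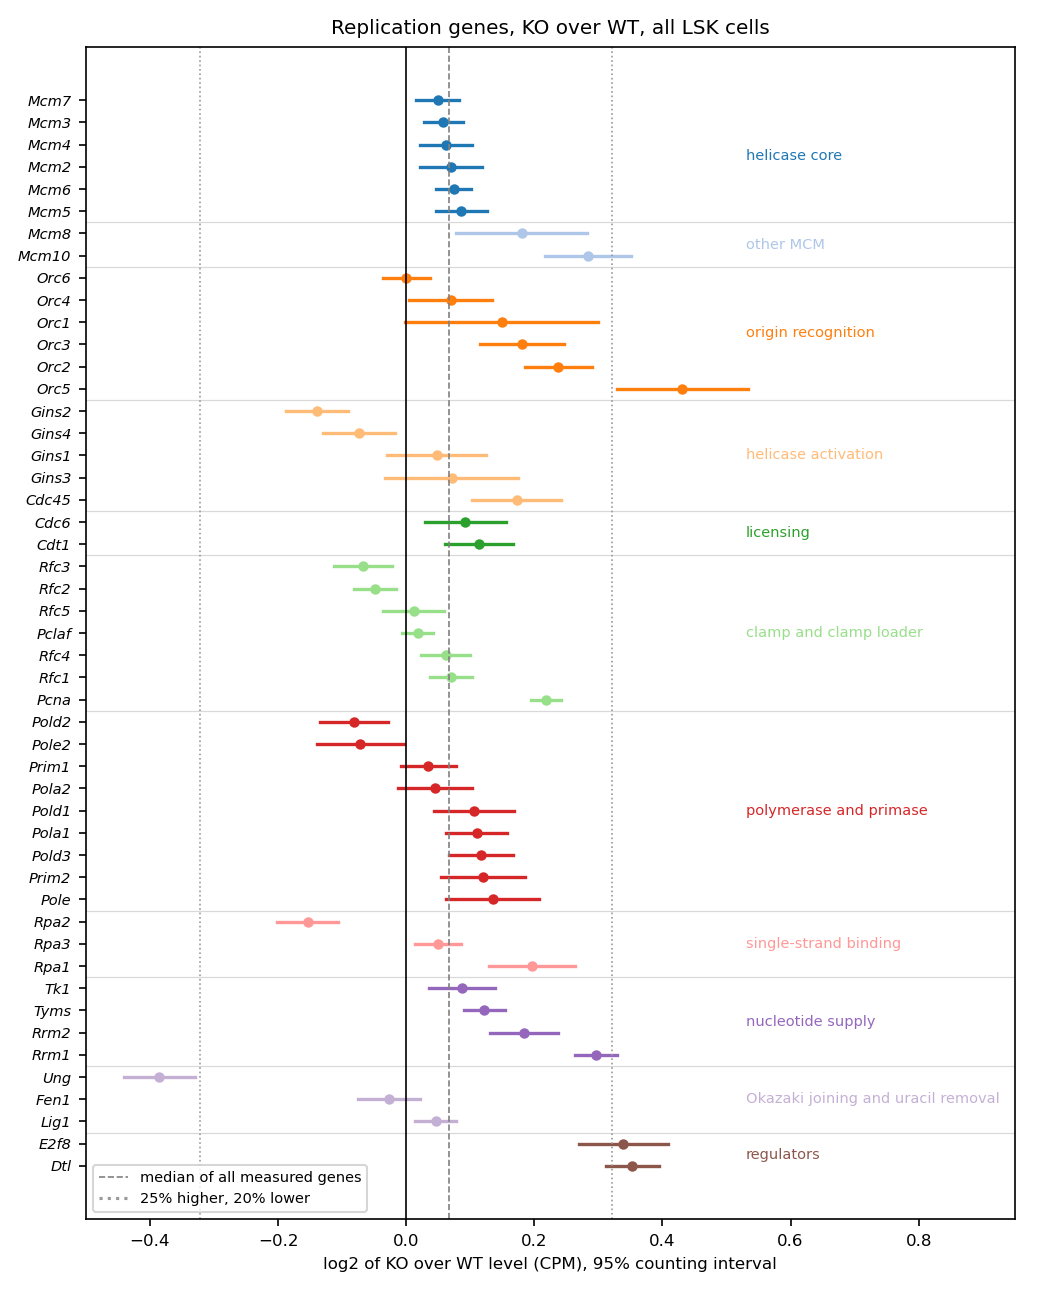
KO over WT ratio of each of the 49 replication genes over all LSK cells, on a log2 scale (x axis), with its 95% counting interval (bar) and grouped by role (colours). Orc5, Dtl, E2f8 and Ung lie beyond the dotted fold lines, and the rest lie around the dashed median of all genes at 0.07.

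Among licensing and helicase genes the helicase core and the loading factors each lay close together. The 6 subunits of the MCM helicase core, Mcm2 to Mcm7, summed to 658 CPM in WT against 688 CPM in KO, and their ratios ran only from 0.05 (0.02 to 0.08) for Mcm7 to 0.09 (0.05 to 0.13) for Mcm5. Mcm10, which helps to activate the loaded helicase, was at 26.8 CPM in WT against 32.6 CPM in KO, a ratio of 0.28 (0.22 to 0.35). Mcm8, an MCM relative that acts in recombination repair, was at 12.2 CPM in WT against 13.9 CPM in KO, a ratio of 0.18 (0.08 to 0.28). The loading factors Cdt1 and Cdc6 had ratios of 0.11 (0.06 to 0.17) and 0.09 (0.03 to 0.16). Among the ORC subunits the spread was wider. Orc6 was at 97.8 CPM in WT against 97.9 CPM in KO, a ratio of 0.00 (-0.04 to 0.04). Orc5 was at 11.0 CPM in WT against 14.9 CPM in KO, a ratio of 0.43 (0.33 to 0.53). The genes that switch the helicase on lay on both sides of 0. Cdc45 had a ratio of 0.17 (0.10 to 0.24), the GINS subunit Gins1 had 0.05 (-0.03 to 0.12), and Gins2 had -0.14 (-0.19 to -0.09).

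Most genes of DNA synthesis itself lay near 0. The 9 polymerase and primase genes summed to 388 CPM in WT against 403 CPM in KO. Their largest ratio was 0.14 (0.06 to 0.21) for Pole, the catalytic subunit of polymerase epsilon, and the smallest in size was 0.03 (-0.01 to 0.08) for the primase Prim1. Pcna, the sliding clamp, was at 223 CPM in WT against 259 CPM in KO, a ratio of 0.22 (0.20 to 0.24). The clamp loader subunit Rfc5 was at 58.7 CPM in WT against 59.2 CPM in KO, a ratio of 0.01 (-0.04 to 0.06). The 3 subunits of RPA lay on both sides of 0, with ratios of 0.20 (0.13 to 0.26) for Rpa1, 0.05 (0.01 to 0.09) for Rpa3 and -0.15 (-0.20 to -0.11) for Rpa2. Fen1, which trims Okazaki fragments, had a ratio of -0.03 (-0.08 to 0.02). The nucleotide supply genes Rrm1, Rrm2, Tyms and Tk1 summed to 329 CPM in WT against 375 CPM in KO. Rrm1, the large subunit of ribonucleotide reductase, had the largest of their ratios at 0.30 (0.26 to 0.33), and the thymidine kinase Tk1 had the smallest at 0.09 (0.04 to 0.14).

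Cells were next placed in 4 ranges of cell cycle scores that use none of the 49 genes. Each cell was thinned to 8000 UMIs, and its counts of 25 S-side genes and 40 G2 and M genes were set against the medians of 11 and 9 UMIs over both libraries. The ranges are named both low, S side only, both high and G2/M only. They are parts of a score and not cell types. In WT the summed level of the replication genes was 1654, 3705, 4594 and 2315 CPM in these 4 ranges, and in KO it was 1667, 3629.6, 4589.5 and 2389.7 CPM. Libraries thus stood within 0.05 of each other on the log2 scale in each range, while ranges of 1 library lay far apart.

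The median ratios of the measured genes were 0.02, 0.00, 0.01 and 0.03, beside 0.10, 0.06, 0.05 and 0.05 for all genes. In both-low cells 2 of 42 genes were called higher (all genes: 13.7%) and 1 lower (all genes: 1.38%). In S-side-only cells 1 of 49 genes was called higher (all genes: 9.7%) and 2 lower (all genes: 2.19%). In both-high cells 2 of 49 genes were called higher (all genes: 7.85%) and 1 lower (all genes: 3.75%). In G2/M-only cells 2 of 48 genes were called higher (all genes: 8.84%) and 1 lower (all genes: 4.01%). Besides Dtl, E2f8, Orc5 and Ung, Pclaf was the only gene among these calls. The shares of cells differed between the libraries, with 1997 of 5345 WT cells and 782 of 2676 KO cells in the both-low range.

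The timing of each gene was described by its level in S-side-only cells over its level in G2/M-only cells, on a log2 scale. In WT 41 of the 49 genes were higher on the S side. At the early end stood Ung, the uracil-DNA glycosylase that removes uracil from DNA, with 35.3, 118, 54.9 and 8.22 CPM in both-low, S-side-only, both-high and G2/M-only cells, an S side over G2/M ratio of 3.84 (3.64 to 4.05). Orc1, the ORC subunit known to be regulated through the cycle, followed at 1.79 (1.40 to 2.20), and the licensing factor Cdc6 at 1.76. Mcm4, Mcm2 and Dtl came next at 1.73, 1.57 and 1.56. At the late end stood Pclaf, a small protein that binds PCNA, with 11.8, 107, 449 and 173 CPM, a ratio of -0.69 (-0.76 to -0.62). E2f8, a repressor of E2F targets, was at -0.35. The 6 genes of the MCM helicase core ran from 0.84 to 1.73, all toward the S side, while the helicase activators ran from 0.13 for Cdc45 to 1.05 for Gins2. Rrm1 and Tk1 lay toward G2/M with Pclaf and E2f8, at -0.15 and -0.15. Orc5 was at -0.24 (-0.50 to 0.02), with an interval that includes 0.

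Some genes barely followed the cycle ranges. Orc4, an ORC subunit, was at 33.5, 33.3, 29.7 and 31.0 CPM across the 4 ranges of WT cells. Orc3 was at 26.1, 29.1, 32.1 and 29.2 CPM and Orc5 at 9.93, 9.42, 12.2 and 11.2 CPM. Orc6 was at 53.1, 117, 132 and 62.9 CPM and Orc2 at 30.4, 50.2, 53.5 and 37.0 CPM. Within ORC, then, Orc1, Orc6 and, less so, Orc2 rose with the S-side score, while Orc3, Orc4 and Orc5 were nearly level. In contrast, Tk1 was at 4.45, 30.4, 89.0 and 33.6 CPM and Rrm2 at 4.24, 35.1, 81.2 and 22.1 CPM. The highest range was both high for 36 genes in WT and 38 in KO, 35 of them in both. It was S side only for 12 and 10, 9 of them in both. Over 36 points, each a cluster of 1 library, the correlation of a gene with the sum of the others had a median of 0.89. It was highest for Lig1, the ligase that joins Okazaki fragments, at 0.98, and lowest for Orc4 and Orc5 at -0.26 and 0.11. These points share libraries and depth, and the correlations are a description.

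**Figure D2:**
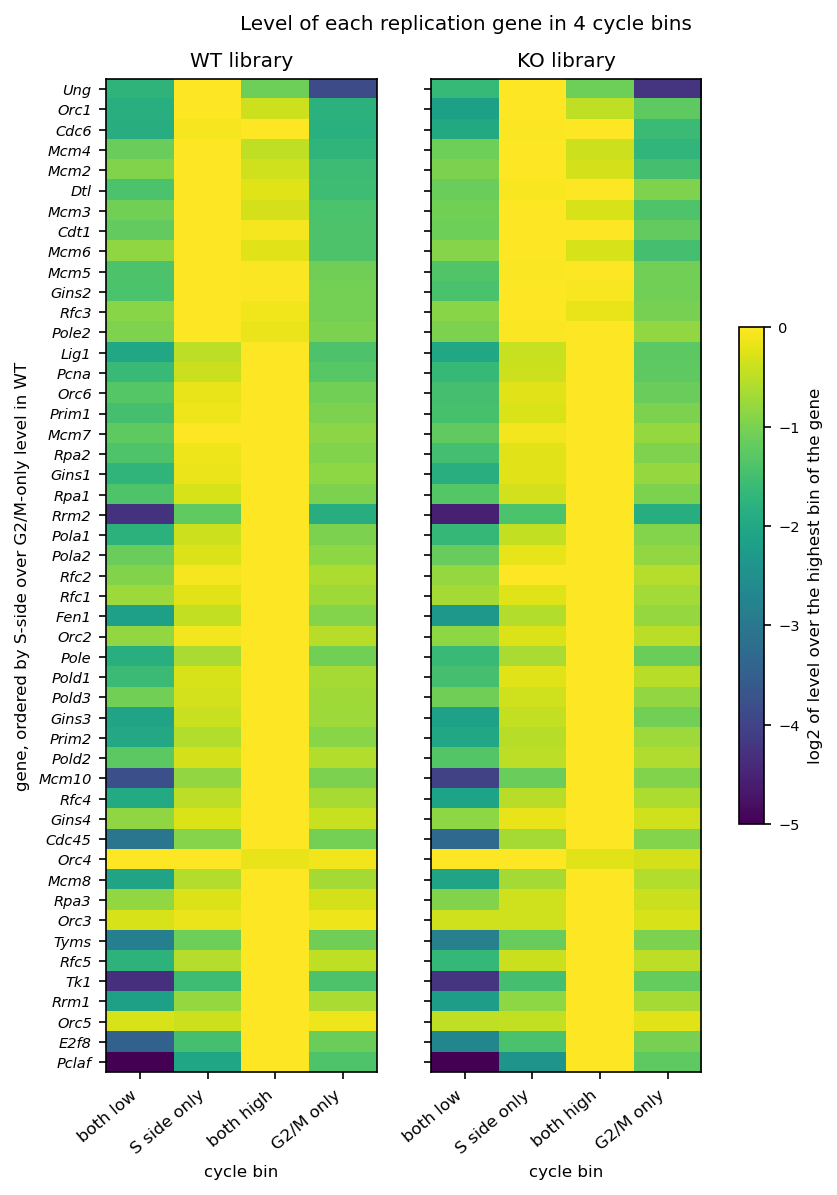
Level of each replication gene in the 4 cycle ranges (x axis) in the WT (left) and KO (right) library, coloured by log2 of the level over that gene's highest range. Genes are ordered by S-side-only over G2/M-only level in WT, from Ung at 3.84 to Pclaf at -0.69, and the rows of Orc3, Orc4 and Orc5 are nearly uniform.

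Promoter sequences are shown for 8 genes because they span this order, from Ung, Orc1, Cdc6, Dtl and Mcm6 on the S side to Pclaf and E2f8 on the G2/M side, with Orc5 as a nearly level gene. The windows run from 250 bases before to 30 bases after the annotated start in RefSeq (build GRCm38.p6), written 5′ to 3′ on the gene's strand. Capitals mark E2F-type letters (TTTCCCGC, TTTCGCGC, TTTGCCGC or TTTGGCGC) and the CCAAT box (CCAAT), each on either strand, and overlapping matches are merged into 1 run of capitals.
Ung (chr5:114130185-114130464, plus strand): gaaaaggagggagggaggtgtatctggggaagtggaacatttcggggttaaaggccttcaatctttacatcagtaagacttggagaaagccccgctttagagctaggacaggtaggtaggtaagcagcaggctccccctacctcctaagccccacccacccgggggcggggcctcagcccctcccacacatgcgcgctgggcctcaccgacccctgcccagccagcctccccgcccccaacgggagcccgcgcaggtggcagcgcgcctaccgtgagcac
Orc1 (chr4:108579204-108579483, plus strand): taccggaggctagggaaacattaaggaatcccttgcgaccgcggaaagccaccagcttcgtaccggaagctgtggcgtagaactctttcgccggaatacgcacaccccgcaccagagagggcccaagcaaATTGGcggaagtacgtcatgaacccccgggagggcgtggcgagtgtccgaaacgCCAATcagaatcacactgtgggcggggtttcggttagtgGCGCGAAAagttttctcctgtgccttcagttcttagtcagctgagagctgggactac
Cdc6 (chr11:98907901-98908180, plus strand): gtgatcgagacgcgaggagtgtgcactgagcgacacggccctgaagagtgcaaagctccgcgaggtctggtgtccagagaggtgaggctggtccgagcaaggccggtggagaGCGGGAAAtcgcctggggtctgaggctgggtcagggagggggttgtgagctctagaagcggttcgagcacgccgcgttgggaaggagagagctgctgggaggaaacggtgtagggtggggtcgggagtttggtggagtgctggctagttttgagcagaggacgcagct
Dtl (chr1:191575515-191575794, minus strand): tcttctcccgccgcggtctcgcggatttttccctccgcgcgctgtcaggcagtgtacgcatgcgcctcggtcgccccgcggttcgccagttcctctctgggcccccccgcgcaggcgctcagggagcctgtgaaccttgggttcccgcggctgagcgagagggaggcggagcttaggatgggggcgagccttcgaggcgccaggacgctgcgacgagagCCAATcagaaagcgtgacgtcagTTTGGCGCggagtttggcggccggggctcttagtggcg
Mcm6 (chr1:128359676-128359955, minus strand): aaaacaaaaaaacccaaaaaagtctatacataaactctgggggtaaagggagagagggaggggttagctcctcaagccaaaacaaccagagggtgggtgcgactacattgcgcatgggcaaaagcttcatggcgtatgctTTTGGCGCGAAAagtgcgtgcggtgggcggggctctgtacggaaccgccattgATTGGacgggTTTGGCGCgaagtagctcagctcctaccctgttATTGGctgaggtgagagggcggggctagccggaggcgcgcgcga
Pclaf (chr9:65890073-65890352, plus strand): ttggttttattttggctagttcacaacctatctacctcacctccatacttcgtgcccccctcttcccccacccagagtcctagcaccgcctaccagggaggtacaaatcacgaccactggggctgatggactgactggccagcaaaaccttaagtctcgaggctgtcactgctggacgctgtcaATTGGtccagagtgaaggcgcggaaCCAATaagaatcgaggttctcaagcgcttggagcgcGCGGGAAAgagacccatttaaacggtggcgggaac
E2f8 (chr7:48881567-48881846, minus strand): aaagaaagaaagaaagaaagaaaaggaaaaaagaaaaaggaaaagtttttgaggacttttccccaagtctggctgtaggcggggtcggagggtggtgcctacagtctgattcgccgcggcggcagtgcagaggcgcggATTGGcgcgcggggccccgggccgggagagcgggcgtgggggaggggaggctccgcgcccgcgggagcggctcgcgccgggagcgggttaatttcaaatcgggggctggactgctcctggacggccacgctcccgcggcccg
Orc5 (chr5:22550309-22550588, minus strand): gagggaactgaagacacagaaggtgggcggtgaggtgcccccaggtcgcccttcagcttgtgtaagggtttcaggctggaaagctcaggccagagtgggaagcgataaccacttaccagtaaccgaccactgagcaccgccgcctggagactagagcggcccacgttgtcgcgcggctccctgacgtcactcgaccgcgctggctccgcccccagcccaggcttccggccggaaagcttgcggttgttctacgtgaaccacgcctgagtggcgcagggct
In these windows Mcm6 held 3 E2F-type matches and 2 CCAAT boxes. Cdc6, Orc1, Dtl and Pclaf held 1 E2F-type match each. E2f8 held 1 CCAAT box and no E2F-type match, and Ung and Orc5 held neither set of letters.

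Promoter windows were found for 42 of the 49 genes. The 7 others were Mcm4, Gins1, Gins2, Gins4, Rfc2, Prim2 and Pole. E2F-type letters were present at 14 of the 42 genes and in 28.0% of their 50 windows. They were present in 2.12% of all 32851 windows of that length, and in 3.18% of the 10251 windows with a GC content of 53.2% to 65.3%, the quartiles of the replication genes. CCAAT was present in 58.0% of the replication gene windows, 36.1% of all windows and 36.7% of the windows of like GC content. The CHR letters (TTTGAA or TTCGAA, either strand), found at many G2/M genes, were present in 16.0%, 18.4% and 11.9% of these windows. The share at the replication genes was thus below that of all windows and above that of windows of like GC content. The 14 genes with E2F-type letters had a median S side over G2/M ratio of 1.02 in WT, and the 28 genes without had 0.41. The median KO over WT ratio was 0.08 with and 0.08 without them. A match is a run of letters and not a shown binding site.

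Dtl was the gene called higher in the most of the large lineage classes given below. It encodes the substrate receptor of the CRL4-Cdt2 ubiquitin ligase, which removes Cdt1 on PCNA-bound DNA. Over all cells it was at 69.1 CPM in WT against 88.3 CPM in KO, a ratio of 0.35 (0.31 to 0.39), from 9778 WT and 9216 KO UMIs. Its ratio was above 0 in 16 of 18 clusters, and the 4 surface gates gave 0.31 to 0.62. Weighting the KO cells to the WT make-up of clusters gave 0.39, and weighting to that of the cycle ranges, a setting added after seeing the data, gave 0.30, just short of the fold.

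Along the cycle the Dtl ratios ranged from near 0 to well above the fold, and the difference between the ranges was not tested. In S-side-only cells Dtl was at 104 CPM in WT against 106 CPM in KO, a ratio of 0.04 (-0.06 to 0.13). In both-low cells it was at 39.1 CPM in WT against 50.2 CPM in KO, a ratio of 0.36 (0.24 to 0.48), in both-high cells at 87.9 and 110.2 CPM, and in G2/M-only cells at 35.3 and 56.8 CPM, a ratio of 0.69 (0.56 to 0.81). S-side-only levels were thus about equal, and the other ranges were higher in KO. The S side over G2/M ratio of Dtl was 1.56 (1.45 to 1.67) in WT and 0.91 (0.79 to 1.02) in KO, the largest gap between the libraries among the 49 genes. In G2/M-only cells the KO over WT ratio was above 0 in each surface gate, at 1.05 (0.21 to 1.95) in CD150+CD48- cells, 0.85 (0.40 to 1.31) in CD150-CD48- cells, 0.75 (0.52 to 0.97) in CD150+CD48+ cells and 0.54 (0.37 to 0.71) in CD150-CD48+ cells. The first of these rests on 18 WT and 38 KO UMIs.

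Ung was at 51.9 CPM in WT against 39.7 CPM in KO over all cells, a ratio of -0.39 (-0.44 to -0.33). It was lower in each cycle range, with ratios of -0.24 (-0.39 to -0.10) in both-low, -0.33 (-0.43 to -0.23) in S-side-only, -0.33 (-0.41 to -0.26) in both-high and -0.71 (-1.06 to -0.37) in G2/M-only cells. By surface gate it was at 40.9 CPM and 41.0 CPM in CD150+CD48- cells, a ratio of 0.00 (-0.22 to 0.23). In CD150+CD48+ cells it was at 51.3 CPM and 34.6 CPM, a ratio of -0.57 (-0.69 to -0.45). These intervals did not overlap, and the difference between the gates was not tested. Without the lineage clusters described below, its ratios in the 4 gates were -0.51 to -0.36. Among lineage classes its ratio was -0.61 (-0.83 to -0.40) in megakaryocyte-like and -0.04 (-0.20 to 0.11) in erythroid-like cells. Weighting KO cells to the WT make-up of clusters gave -0.21, which is short of the fold.

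E2f8 was at 24.2 CPM in WT against 30.6 CPM in KO, a ratio of 0.34 (0.27 to 0.41). Within cycle ranges its ratio was 0.89 (0.52 to 1.25) in both-low cells, where it was at 3.80 CPM in WT against 7.04 CPM in KO from 129 WT and 127 KO UMIs, and so passed the minimum of 5 CPM only through KO, where it was high. Its ratio was 0.13 (0.05 to 0.22) in both-high cells. Weighting to the WT cycle ranges gave 0.19 and weighting to the WT clusters gave 0.27, both short of the fold. Orc5 had ratios of 0.27 to 0.46 in the 4 cycle ranges, and weighting to them gave 0.39. Of the large classes erythroid-like cells had the highest Orc5 level, at 24.6 CPM in WT against 27.2 CPM in KO. In the other 4 classes with at least 100 cells per library it was at 6.15 to 11.3 CPM in WT. Weighting to the WT clusters gave a ratio of 0.18 for Orc5, short of the fold. Erythroid-like cells were 253 of the WT and 311 of the KO cells, and their part in the Orc5 ratio was not tested.

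**Figure D3:**
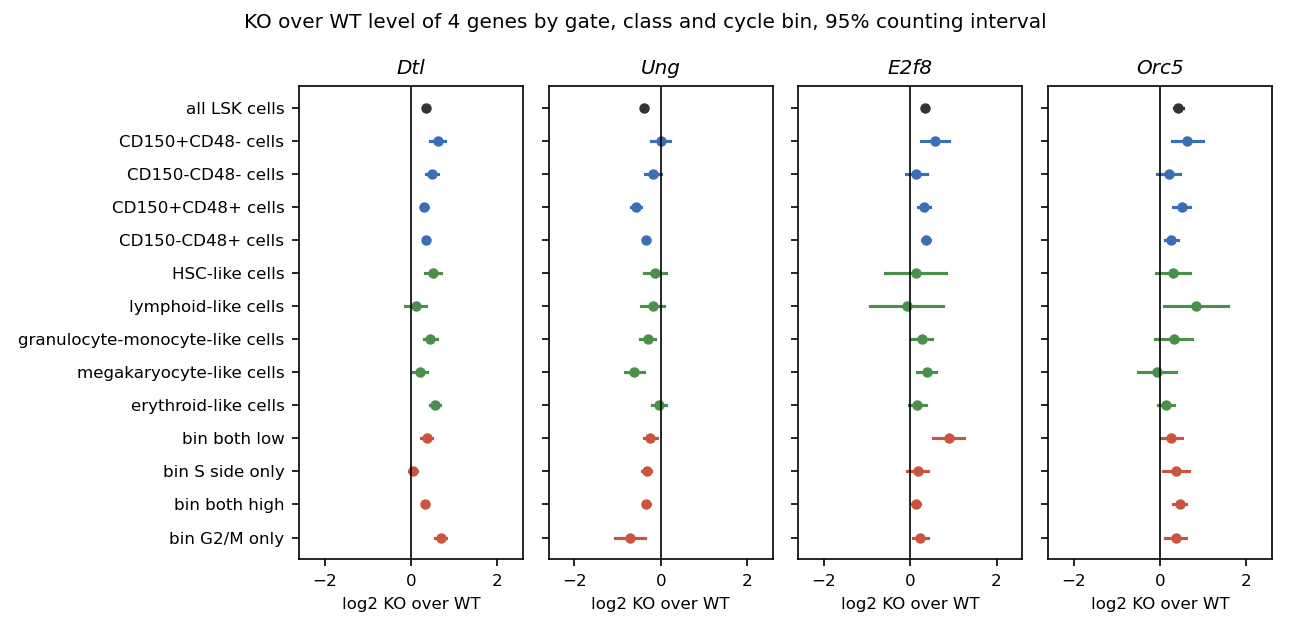
KO over WT ratios (log2, x axis) with 95% counting intervals of Dtl, Ung, E2f8 and Orc5 over all LSK cells and by surface gate, large lineage class and cycle range (colours). Dtl lies at 0.04 in S-side-only cells and at 0.69 in G2/M-only cells, and Ung at 0.00 in CD150+CD48- cells and at -0.57 in CD150+CD48+ cells.

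Surface gates were drawn on the CD150 and CD48 antibody tags and use no count of the 49 genes. The tag counts were not scaled for the depth of a cell. In WT the median gene UMIs were 15291.5 in CD150+CD48- and 15640 in CD150-CD48- cells. They were 27783.5 in CD150+CD48+ and 24241.5 in CD150-CD48+ cells. Slamf1, which encodes CD150, was at 21.4 CPM in WT and 17.7 CPM in KO in CD150+CD48- cells, and at 1.92 CPM in WT and 2.14 CPM in KO in CD150-CD48+ cells. Cd48 was at 14.9 CPM in WT and 27.4 CPM in KO in the former, and at 175 CPM in WT and 179 CPM in KO in the latter, so the transcripts followed the tags. In WT the summed level of the replication genes was lowest in CD150+CD48- cells at 2628 CPM (2594 to 2662). It was 2906 CPM (2877 to 2936) in CD150-CD48- cells, 3379 CPM (3367 to 3391) in CD150-CD48+ cells and 3546 CPM (3525 to 3567) in CD150+CD48+ cells, and in this order no neighbouring intervals overlapped. Of the 49 genes, 36 were lower in CD150+CD48- than in CD150-CD48+ cells of WT with an interval clear of 0, and 2 were higher. In KO these counts were 14 and 6. The same counts over all genes are not given here, so they do not show a trait particular to the replication genes. Fewer dividing cells and less transcript per dividing cell cannot be told apart in such sums.

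The genes that varied most over the gates of WT were Gins1, Pclaf, Rrm2 and Orc5. In the order CD150+CD48-, CD150-CD48-, CD150+CD48+ and CD150-CD48+, Gins1 was at 10.4, 20.2, 20.8 and 24.2 CPM in WT and at 16.9, 21.3, 23.3 and 24.1 CPM in KO. Pclaf was at 117, 137, 215 and 272 CPM in WT and at 115, 132, 212 and 299 CPM in KO. Both were lowest in CD150+CD48- cells of WT. Rrm2, the small subunit of ribonucleotide reductase, was at 21.7, 46.3, 46.6 and 45.6 CPM in WT and at 46.6, 54.7, 50.8 and 49.8 CPM in KO. Orc5 went the other way, at 13.5, 17.3, 12.8 and 9.27 CPM in WT and at 21.0, 19.9, 18.2 and 11.2 CPM in KO. The genes that varied least in WT were Gins4, at 43.4, 44.2, 43.9 and 43.5 CPM, Rfc3 at 64.5, 61.9, 66.7 and 69.4 CPM, Mcm2 at 52.4, 52.8, 59.3 and 55.8 CPM and Rpa1 at 26.1, 26.9, 29.6 and 27.5 CPM.

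Within cycle ranges CD150+CD48- cells were below CD150-CD48+ cells in 3 of the 4 ranges of WT. In both-low cells of WT the summed level was 1449.9 CPM in CD150+CD48- and 1711 CPM in CD150-CD48+ cells. It was 3525 and 3710.4 CPM in S-side-only cells, and 1947 and 2276 CPM in G2/M-only cells. In both-high cells of WT it was 5066 CPM and 4694 CPM, the other order, which KO did not show, at 4387 and 4801 CPM. Both-low cells made up 67.1% of WT CD150+CD48- cells and 33.1% of WT CD150-CD48+ cells.

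In CD150+CD48- cells most replication genes were higher in KO. Their summed level was 2628 CPM in WT against 3259 CPM (3219 to 3299) in KO, a ratio of 0.31 (0.28 to 0.34), from 492 and 244 cells. The median ratio of the 49 genes was 0.31, beside -0.0047 for all measured genes. All of them except Pclaf had a ratio above 0. In this gate 24 of 49 genes were called higher (all genes: 18.6%) and 0 lower (all genes: 20.3%). The excess was not particular to these genes. The G2 and M genes had a median of 0.51 there, with 32 of 40 higher and 1 lower. The S-side genes had 0.40, with 16 of 25 higher and 0 lower. Medians were 0.50 for replication-dependent histone genes, 0.39 for further nucleotide supply genes and 0.37 for Fanconi and homologous recombination genes. They were 0.24 for other replication factors, 0.22 for chromatin assembly genes and 0.17 for E2F and RB regulators. Rrm2 had the largest ratio at 1.10 (0.84 to 1.36), followed by Mcm10 at 0.76 (0.47 to 1.04), Rrm1 at 0.73 (0.59 to 0.87) and Gins1 at 0.70 (0.30 to 1.10). Pcna was at 174 CPM in WT against 252 CPM in KO. The 4 nucleotide supply genes together had a ratio of 0.58 (0.50 to 0.67) and the MCM helicase core had 0.31 (0.25 to 0.37).

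The make-up of this gate differed between the libraries as well. Erythroid-like cells, a class rebuilt from clusters made without the 49 genes, were 2.44% of WT and 16.8% of KO cells in the CD150+CD48- gate, and stem-cell-like (HSC-like) cells were 75.2% and 57.0%. These are shares of cells, while levels are sums of UMIs in which deep cells weigh more. Over all gates erythroid-like cells had a median of 55609 UMIs in WT and 72356 in KO. HSC-like cells had 14379 and 20031.5. Of 13 erythroid markers 12 were higher in KO, with 11 at or above 5 CPM in WT and 13 in KO, and their summed level was 2692 CPM in WT and 2709.8 CPM in KO. Klf1, an erythroid transcription factor, was at 15.5 CPM in WT and 70.9 CPM in KO, and the stem cell marker Procr at 58.2 CPM in WT and 31.5 CPM in KO. Of 12 HSC markers 0 were higher in KO. Both-low cells were 67.1% of WT and 47.5% of KO cells in the gate.

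Within cycle ranges the excess in CD150+CD48- cells was not general. In both-high cells of this gate, 74 in WT and 74 in KO, the ratio of the summed level was -0.21 (-0.24 to -0.17), and 36 of 49 genes were below 0. In S-side-only cells, 56 and 38, it was -0.11 (-0.18 to -0.04), and 29 of 49 genes were below 0. It was 0.14 (0.08 to 0.20) in 330 and 116 both-low cells, and 0.37 (0.27 to 0.48) in 32 and 16 G2/M-only cells. The replication genes thus summed to less in KO in 2 of the 4 ranges of this gate and to more in the other 2.

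Without the cells of clusters named for a lineage other than HSC-like ones and of clusters under 50 cells, a setting added after seeing the data, the CD150+CD48- gate held 465 WT and 177 KO cells. Its gene UMIs were 7.58e+06 in WT and 3.94e+06 in KO, beside 8.66e+06 and 7.81e+06 for all cells of the gate. The cells left out thus carried a larger part of the gate's UMIs in KO than in WT. The summed level was then 2492 CPM (2457 to 2528) in WT against 2543 CPM (2494 to 2593) in KO, a ratio of 0.03 (-0.01 to 0.06), so most of the excess was not seen in these cells. The median ratio was 0.05, beside 0.08 for all genes, and 5 of 48 genes were called higher (all genes: 17.2%) and 5 lower (all genes: 5.62%). Called higher were Pold1 at 0.50 (0.13 to 0.86), Gins1 at 0.45 (-0.13 to 1.01), Pole at 0.40 (0.06 to 0.73), Dtl at 0.34 (0.13 to 0.56) and E2f8 at 0.32 (-0.10 to 0.74). Called lower were Cdc6 at -0.51 (-0.93 to -0.10), Gins4 at -0.44 (-0.75 to -0.14), Fen1 at -0.38 (-0.74 to -0.04), Ung at -0.36 (-0.67 to -0.05) and Rpa2 at -0.34 (-0.62 to -0.06). Rrm2 then stood at 17.7 CPM in WT against 18.0 CPM in KO, a ratio of 0.03 (-0.41 to 0.45), and Klf1 at 1.06 CPM in WT and 1.52 CPM in KO.

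**Figure D4:**
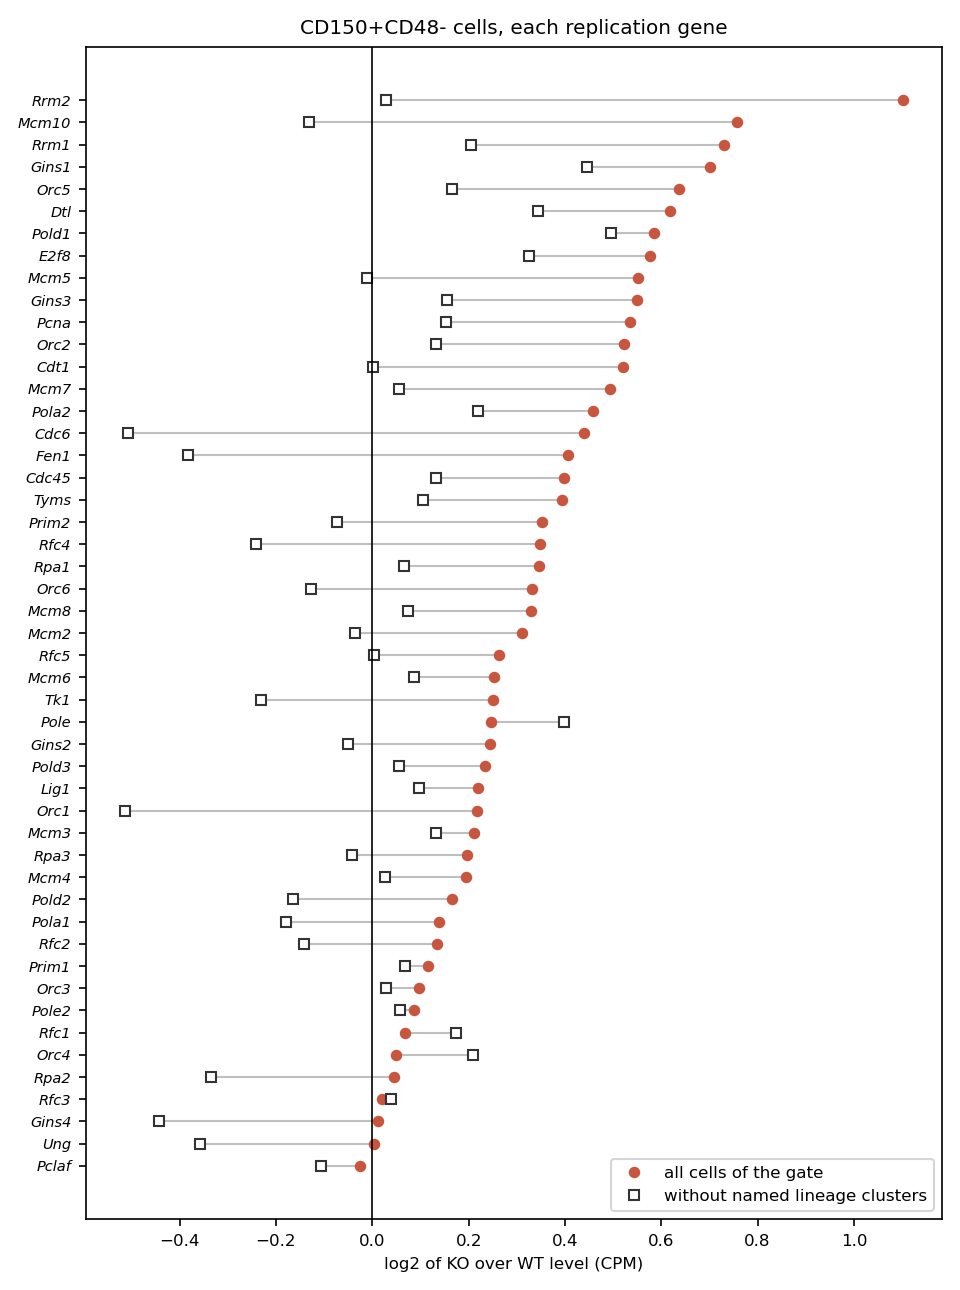
KO over WT ratio (log2, x axis) of each replication gene in CD150+CD48- cells, for all cells of the gate and without lineage clusters (the marker shapes given in the key). Over all cells of the gate the median is 0.31 and Pclaf alone lies below 0, and without lineage clusters the values scatter around a median of 0.05.

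The same gate was divided at the median CD201 tag share of each library, CD201 being a surface protein known to be high on stem cells. CD201-high cells had a summed level of 2130.3 CPM (2084 to 2178) in WT against 2854 CPM (2796 to 2913) in KO, a ratio of 0.42 (0.38 to 0.47), and 28 of 48 genes were called higher (all genes: 21.4%) and 0 lower (all genes: 19.2%). CD201-low cells had 3009.5 CPM against 3539.9 CPM, a ratio of 0.23 (0.20 to 0.27), and 17 of 49 genes were called higher (all genes: 19.7%) and 0 lower (all genes: 22.4%). The level was lower in CD201-high than in CD201-low cells of each library. Erythroid-like cells were 0 of 246 WT cells, which allows a share of up to 1.22%, and 7.38% of KO cells among the CD201-high cells. Other marker lists moved with this difference as well. In CD201-high cells 10 of 12 granulocyte-monocyte markers were higher in KO, with sums of 701 CPM in WT and 983 CPM in KO. Of monocyte or dendritic markers 7 of 10 were higher, with sums of 321 and 473 CPM, and of erythroid markers 12 of 13, with sums of 2959 and 2989 CPM. Of HSC markers 0 of 12 were higher, with sums of 1985 and 1479 CPM, and the part of these cells in the difference was not tested. Among the CD201-low cells erythroid-like cells were 4.88% and 26.2%. Without lineage clusters the ratio in 246 WT and 104 KO CD201-high cells was 0.12 (0.07 to 0.17), and 9 of 48 genes were called higher (all genes: 19.5%) and 4 lower (all genes: 9.15%). In 219 and 73 CD201-low cells it was -0.0015 (-0.05 to 0.05), and 5 of 48 genes were called higher (all genes: 23.4%) and 7 lower (all genes: 11.9%).

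In the other gates the libraries lay closer. CD150-CD48- cells were at 2906 CPM in WT against 3205 CPM in KO, with a median ratio of 0.14, and 5 of 49 genes were called higher (all genes: 8.52%) and 0 lower (all genes: 10.2%). The higher genes were Mcm8 at 0.54, Dtl at 0.48, Mcm10 at 0.39, Orc1 at 0.39 and Gins3 at 0.34. Erythroid-like cells were 15.4% of WT and 27.8% of KO cells in that gate. In CD150+CD48+ cells the levels were 3546 and 3631 CPM, and 1 of 49 genes was called higher (all genes: 9.17%) and 1 lower (all genes: 6.79%), namely Orc5 and Ung. Erythroid-like cells were 11.1% and 24.5% there. CD150-CD48+ cells, the largest gate with 3364 and 1487 cells, were at 3379 and 3549 CPM, and 2 of 49 genes were called higher (all genes: 7.85%) and 1 lower (all genes: 1.04%). There Dtl and E2f8 were the higher genes and Ung the lower one.

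Ung was called lower in each of these 3 gates once lineage clusters were left out. In CD150-CD48- cells without them the median ratio was 0.01, and 3 of 48 genes were called higher (all genes: 15.9%) and 1 lower (all genes: 7.57%). In CD150+CD48+ cells without them it was 0.10, and 6 of 49 genes were called higher (all genes: 18.1%) and 1 lower (all genes: 3.83%). Orc1, 1 of the higher genes there, was above 5 CPM in KO only. In CD150-CD48+ cells without them it was 0.07, and 0 of 49 genes were called higher (all genes: 8.26%) and 1 lower (all genes: 0.952%).

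**Figure D5:**
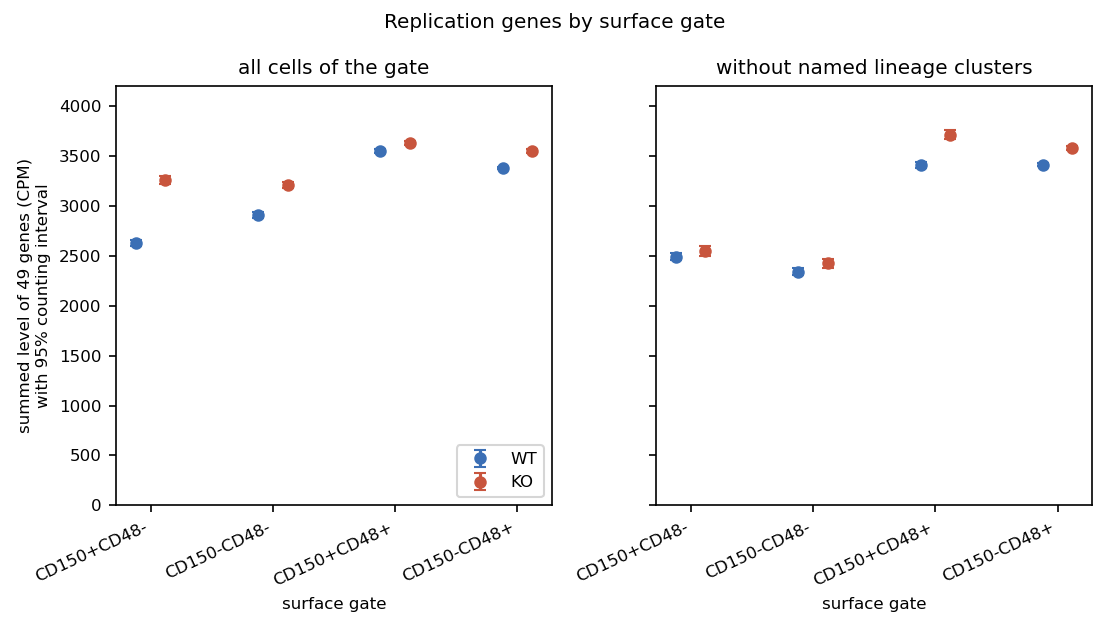
Summed level of the 49 replication genes (CPM, y axis) in the 4 surface gates for WT and KO, with 95% counting intervals, for all cells of a gate and without lineage clusters. CD150+CD48- cells lie at 2628 and 3259 CPM over all cells, and at 2492 and 2543 CPM without lineage clusters.

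Orc6, Gins2, Fen1 and Rpa2 had ratios on opposite sides of 0 in different gates with both intervals clear of 0. Orc6 had 0.33 (0.18 to 0.48) in CD150+CD48- cells and -0.07 (-0.13 to -0.02) in CD150-CD48+ cells. Gins2 had 0.24 (0.03 to 0.45) and -0.17 (-0.23 to -0.11), and Fen1 had 0.41 (0.20 to 0.61) and -0.10 (-0.16 to -0.03), in the same gates. Rpa2 had 0.15 (0.00 to 0.29) in CD150-CD48- cells and -0.22 (-0.28 to -0.16) in CD150-CD48+ cells. Without lineage clusters none of the 4 had opposite signs with both intervals clear of 0. In CD150+CD48- cells Orc6 was then at -0.13, Gins2 at -0.05 and Fen1 at -0.38, and in CD150-CD48- cells Rpa2 was at 0.01. Differences between gates were not tested, since each gate has 1 sample per genotype.

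HSC-like, lymphoid-like, granulocyte-monocyte-like, megakaryocyte-like and erythroid-like cells numbered at least 100 in each library. These are names rebuilt from marker genes, and some unnamed clusters sorted by cycle stage although the listed cycle genes had been left out. HSC-like cells had the lowest level of these, at 1741 CPM (1718 to 1765) in WT against 1854 CPM (1820.3 to 1888) in KO, with a median ratio of 0.10 beside 0.10 for all genes. Clusters 6, 9 and 11 matched HSC markers best but stayed unnamed, so the HSC-like class leaves them out. They were at 2312, 5773 and 2493 CPM in WT, each above the HSC-like level. Lymphoid-like cells were at 2465 and 2417 CPM, with a median ratio of -0.03. Granulocyte-monocyte-like cells were at 3541 and 3760.2 CPM, erythroid-like cells at 3636 and 3708 CPM, and megakaryocyte-like cells at 3815 and 3717 CPM. The spread between these classes of 1 library was thus larger than the gap between libraries within a class.

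In HSC-like cells 4 of 45 genes were called higher (all genes: 17.2%) and 3 lower (all genes: 3.15%). Called higher were Dtl at 0.50 (0.31 to 0.69), Pole at 0.48 (0.15 to 0.81), Gins1 at 0.46 and Prim2 at 0.35. Called lower were Pclaf at -0.82 (-1.27 to -0.38), from 197 WT and 57 KO UMIs, Tk1 at -0.56 and Cdc45 at -0.37. Tk1 was above 5 CPM there in WT only. In erythroid-like cells 1 of 49 genes was called higher (all genes: 8.12%) and 0 lower (all genes: 2.7%), and the higher gene was Dtl at 0.54 (0.43 to 0.66). In granulocyte-monocyte-like cells 2 of 49 genes were called higher (all genes: 16.1%) and 0 lower (all genes: 3.78%), with Dtl at 0.45 (0.31 to 0.59) and Orc3 at 0.41 (0.17 to 0.64). In megakaryocyte-like cells 1 of 49 genes was called higher (all genes: 13.2%) and 4 lower (all genes: 3.95%). The higher gene there was E2f8 at 0.38 (0.16 to 0.60), and the lower ones were Ung, Rpa2 at -0.42 (-0.60 to -0.23), Cdc6 at -0.35 (-0.60 to -0.10) and Prim1 at -0.33 (-0.49 to -0.18). In lymphoid-like cells 2 of 48 genes were called higher (all genes: 21%) and 9 lower (all genes: 6.83%). Tyms, the thymidylate synthase, was among the lower genes there at -0.59 (-0.92 to -0.27). Dtl was thus called higher in 3 of the 5 classes.

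Pclaf turned sign between classes, from -0.82 in HSC-like cells to 0.12 (0.05 to 0.20) in granulocyte-monocyte-like cells. It was at 15.9 CPM in WT against 9.05 CPM in KO in the former and at 293 and 319 CPM in the latter. Over all cells its ratio was 0.02 (-0.01 to 0.04). Within cycle ranges it was -0.53 (-0.81 to -0.26) in both-low, -0.51 (-0.62 to -0.41) in S-side-only, -0.18 (-0.20 to -0.15) in both-high and -0.04 (-0.10 to 0.02) in G2/M-only cells. Weighted to the WT cycle ranges, the ratio of Pclaf was -0.18. Pclaf was thus lower in KO in 3 of the 4 ranges with an interval clear of 0, although its level over all cells was about equal.

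The smallest classes gave wide values. In mast cell-like cells, 71 in WT and 46 in KO, the summed level was 2137 against 1409 CPM, a ratio of -0.60 (-0.70 to -0.51), and 2 of 46 genes were called higher (all genes: 23.1%) and 36 lower (all genes: 32.7%). Of the lower genes, Pole and Cdc45 were above 5 CPM in WT only. In that class 3 cells held 38.5% of the UMIs of the replication genes in WT and 44.1% in KO, and after thinning the median cell had 6 UMIs of these genes in WT and 6 in KO. In basophil or eosinophil-like cells, 39 and 64, 12 of 49 genes were called higher (all genes: 25.4%) and 0 lower (all genes: 14.4%). In monocyte or dendritic-like cells, 149 and 74, 9 of 49 genes were called higher (all genes: 23.3%) and 3 lower (all genes: 10.5%).

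Related gene lists give a frame for these values over all LSK cells. Of all measured genes 7.47% were called higher there and 2.57% lower. Of 40 listed names of other replication factors 39 were found, and Clspn stood in that list also under its protein name Claspin. Of these factors 2 of 37 measured were called higher and 0 lower, with a median ratio of 0.10. Dbf4, the activator of the origin-firing kinase Cdc7, was at 0.36 (0.31 to 0.41), and Mcmbp, an MCM-binding protein, at 0.29 (0.24 to 0.35). Chromatin assembly genes had a median of 0.10 with 0 of 13 higher and 0 lower, with the histone chaperone Nasp at 0.28 (0.25 to 0.30). Further nucleotide supply genes had 0.07 with 0 of 20 higher and 0 lower, with Shmt2, an enzyme of one-carbon metabolism, at 0.28 (0.23 to 0.32). E2F and RB regulators had 0.13 with 2 of 20 higher and 0 lower, among them Ccna2, the cyclin A of S phase and G2, at 0.35 (0.30 to 0.39). Fanconi and homologous recombination genes had 0.18 with 2 of 24 higher and 0 lower. G2 and M genes had 0.31 with 19 of 40 higher and 0 lower, with Bub1, Cenpf and Kif11 at 0.53 (0.46 to 0.59), 0.52 (0.48 to 0.55) and 0.51 (0.46 to 0.55). Replication-dependent histone genes had 0.31 with 26 of 56 higher and 0 lower, with Hist1h2ap at 1.00 (1.00 to 1.01). Their transcripts mostly lack a poly(A) tail and are near-identical copies of each other, so their counts are uncertain. Beside these medians stood 0.07 for the replication machinery.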

How the data were processed

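Raw UMI counts, 1 value for each feature (gene or antibody tag) in each barcode, were deposited by the authors, and Cell Ranger wrote them, per the file headers. The submitters' processing notes give version 4.0.6 and build mm10. The kit counts transcript 3' ends, so levels do not scale with gene length. All values below were computed here from the counts. Barcodes were kept with at least 500 genes, at most 10% mitochondrial UMIs, and 1000 gene UMIs or more (or, where higher, 10% of a high percentile of the richest barcodes, which gave 8178 in WT and 9992 in KO). A doublet caller marked 0 WT and 7 KO cells, which is too few to have worked, so doublets remained in the data.

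For each library and group the UMIs of all cells were added up and scaled to CPM, which lets deep cells weigh more. Levels have exact Poisson intervals and ratios have exact conditional binomial intervals of 2 Poisson counts. Gates used Otsu thresholds on log10 tag counts per library. Clusters (scanpy 1.11.5, Leiden resolution 1, 2000 variable genes, 30 components, 15 neighbours) left out the 49 genes, the listed cycle genes and other technical genes. A cluster was named where its markers led by a mean log2 of at least 1, with 3 markers detected and 1 among its 10 leading genes. Computations were tested on simulated data. The gene list, marker lists and rules were chosen with earlier results of these data known. Genes given in full were those past the fold, the extremes of each role, the 4 most and 4 least variable over gates and those that turned sign, and others named were chosen after their values were seen. Of each related list at most 3 genes at or above 20 CPM were named. Alternatives covered cell filters, doublet scores, scaling, thinning, cell means, free RNA, CPM minimum, gates, clusters and cycle cuts.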

Additional observations from a re-analysis of the deposited data

Results flagged for a closer look

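Orc6, Gins2, Fen1, Rpa2 and Pclaf had KO over WT ratios of opposite sign in 2 groups of cells, with both counting intervals clear of 0. No difference between the groups was tested, because each group has 1 sample per genotype. Orc6 had 0.33 in CD150+CD48- and -0.07 in CD150-CD48+ cells. Gins2 had 0.24 and -0.17, and Fen1 had 0.41 and -0.10, in the same gates. Rpa2 had 0.15 in CD150-CD48- and -0.22 in CD150-CD48+ cells. Without lineage clusters none of these genes had opposite signs between gates with both intervals clear of 0. Pclaf had 0.12 in granulocyte-monocyte-like and -0.82 in HSC-like cells.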

How the results depend on the processing

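Of 227 values recomputed under alternatives, 202 stayed within their interval or within 1.5 times their count, and 24 moved. For a median ratio this interval was that of the middle gene or genes, not an interval of the median itself. Only 1 value changed sign from an interval clear of 0, the median ratio in CD150-CD48+ cells. It was 0.08 and became -0.011 with median-of-ratios scaling. Sign changes from intervals that included 0 were not counted apart. Median-of-ratios scaling takes the median of all genes off each ratio, so the median ratio in each cycle range fell below 0 as well. The number of genes called higher over all cells, 3, became 1 with median-of-ratios scaling, with totals that leave out mitochondrial, ribosomal protein and haemoglobin genes, with KO cells weighted to WT clusters, and with KO cells weighted to WT cycle ranges. The number called lower, 1, became 0 with the cluster weights. The median ratio in CD150+CD48- cells, 0.31, became 0.047 without lineage clusters.

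The summed level of CD150+CD48- over CD150-CD48+ cells was -0.36 in WT and -0.12 in KO. For WT it was -0.34 at a minimum of 10000 UMIs, -0.33 at a mitochondrial limit of 5%, -0.53 with median-of-ratios scaling, -0.39 with the reduced totals, -0.46 after thinning, -0.47 as a mean over cells, -0.47 without cells near a threshold, -0.27 with gates from the centred log ratio and -0.45 without lineage clusters. For KO it was -0.16 at the mitochondrial limit of 5%, -0.23 with median-of-ratios scaling, -0.17 with the reduced totals, -0.29 after thinning, -0.29 as a mean over cells, -0.23 with Gaussian mixture gates, -0.28 without cells near a threshold, -0.079 with the centred log ratio and -0.49 without lineage clusters. It was below 0 in each of these, and the cause of the changes was not tested. Weighting to WT make-up and leaving out lineage clusters both change which cells are counted, by construction. The setting of 500 UMIs was not run for classes and cycle ranges, because the added barcodes have no cluster or score. No paired analysis was possible because each genotype has 1 library. Small gates limit depth: CD150+CD48- cells without lineage clusters rest on 177 KO cells.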
